A study of Macaca mulatta with 8 samples.

Results

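The endoplasmic reticulum (ER) folding and degradation genes described here are 39 genes that sense unfolded protein in the ER, fold the proteins made there, or remove those that fail to fold. They comprise 7 sensors, factors and regulators, 6 chaperones and co-chaperones, 3 genes of the calnexin cycle, 9 genes of oxidative folding, 3 genes of translocation and 11 genes of ER-associated degradation. The members were taken by symbol from a list written with earlier results of these data known, and all 39 symbols were found among the 35432 genes of the count files. All 39 were among the 12131 genes that passed the filter on low counts.

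Poly(A) RNA was sequenced from primary microglia that were isolated from subcortical white matter of 4 adult rhesus macaques and kept for 8 days in serum-containing medium with M-CSF. Each donor gave 2 libraries, 1 from cells that had 10 µg/mL ultrapure LPS (uLPS), a TLR4 agonist, for 16 h and 1 from cells that in addition received 5 µM MRS2578 1 h before uLPS. MRS2578 is an antagonist of the UDP receptor P2RY6 that the study's methods describe as selective but not fully specific, and it was dissolved in DMSO. The donors R07110 and R12016 were listed as males and R02046 and R14143 as females, and no culture without uLPS was analysed here.

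Proteins that enter the secretory pathway are folded in the ER by chaperones, by lectins that read their sugar chains and by enzymes that form disulfide bonds. When unfolded protein accumulates, the sensors IRE1 (encoded by ERN1), PERK (EIF2AK3) and ATF6 start the unfolded protein response. IRE1 splices the mRNA of XBP1, PERK slows translation and raises ATF4, and ATF6 is cleaved to a transcription factor. Spliced XBP1 and cleaved ATF6 raise the transcription of ER chaperones and of the machinery that returns misfolded protein to the cytosol for degradation. Macrophages and microglia depend on this machinery for the cytokines and receptors they secrete or display, and Toll-like receptors are known to engage the IRE1 and XBP1 branch. Splicing of XBP1 is not measured by a count per gene.

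The conditions of donor R02046 were in doubt. Each of the 8 columns of CPM values published with the paper matched exactly 1 deposited library, of the same donor in all 8, and the condition in the column name was that of the sample label for 6 and the opposite for 2, which were both libraries of R02046. The files do not settle which assignment holds. Values are therefore given with the deposited labels, then with the R02046 libraries exchanged between conditions, and then without R02046.

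Total counts were between 9231109 and 32790348 per library, and the members together took between 0.910% and 1.72% of them. Of 11 microglia markers, 9 were above 1 CPM (read counts scaled to a common library size, with TMM factors) on average, and CSF1R was between 1006 and 1471 CPM in the 8 libraries. Markers of the homeostatic state in the brain were low, with TMEM119 at no more than 0.3 CPM and CX3CR1 at no more than 2.2 CPM. Markers of lymphocytes and neurons were at or near 0 apart from CD8A, which was between 5.7 and 50.7 CPM. Of the oligodendrocyte markers, CNP was between 158 and 343 CPM and MBP between 58.9 and 74.8 CPM in the 8 libraries, and MOG was at no more than 0.508 CPM. The 7 astrocyte markers summed to between 88.8 and 205 CPM and between 112 and 190 CPM, and 4 of them were above 1 CPM. The 12 markers of endothelial, mural and fibroblast cells summed to between 307 and 1389 CPM with uLPS and to between 391 and 788 CPM with uLPS and MRS2578, and 9 of them were above 1 CPM. Their highest sum was that of the uLPS library of R14143, against 611 CPM in its MRS2578 library, and their part in the results was not tested. In that uLPS library the matrix genes COL1A1, COL1A2, COL3A1 and DCN were at 512, 330, 209 and 138 CPM. PECAM1 and VWF were at 127 and 64.9 CPM there. The endothelial and mural markers CLDN5, CDH5 and RGS5 were at no more than 0.202 CPM in any library. PDGFRB and ACTA2, of the same list, reached 5.13 CPM in the uLPS library of R14143 and 5.04 CPM in that of R12016. Fewer cells of a type and less RNA per cell cannot be told apart in such libraries.

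With uLPS alone and the deposited labels, the members spanned 3 orders of abundance when compared per kilobase of exon. The highest level was that of CALR, a lectin chaperone of the ER lumen, at 1071 ± 304 CPM per kilobase (SD, n = 4). It was followed by P4HB, a protein disulfide isomerase, at 544 ± 94.9 CPM per kilobase, by HSPA5, the Hsp70 chaperone BiP, at 510 ± 186 CPM per kilobase and by HSP90B1, the Hsp90 chaperone of the ER, at 453 ± 166 CPM per kilobase. With the labels, the means of these last 3 did not differ from each other by more than their spread over donors. The order of the 3 genes within each donor was not compared. The spread over donors depended on R02046. With its libraries exchanged, HSPA5 with uLPS was at 1133 ± 129 CPM, not scaled by length, against 1319 ± 481 CPM with the labels. P4HB was at 1365 ± 148 against 1417 ± 247 CPM, and HSP90B1 at 1134 ± 268 against 1231 ± 451 CPM. A step down led to PDIA6 at 155 ± 55.0 CPM per kilobase and to OS9, a lectin of ER-associated degradation, at 147 ± 10.5 CPM per kilobase. The sensors were among the lower members, with ATF6 at 16.2 ± 0.740, ERN1 at 7.73 ± 3.81 and EIF2AK3 at 4.90 ± 0.726 CPM per kilobase. The lowest members were ERO1B, an oxidase that recharges the disulfide isomerases, at 3.91 ± 0.608 CPM per kilobase and DERL3, a member of the derlin family, at 0.944 ± 0.896 CPM per kilobase. In CPM, DERL3 with uLPS was at 1.60 ± 1.52 with the labels and at 0.819 ± 0.243 with R02046 exchanged. A plot of the levels per kilobase orders all members with the deposited labels.

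**Figure D1:**
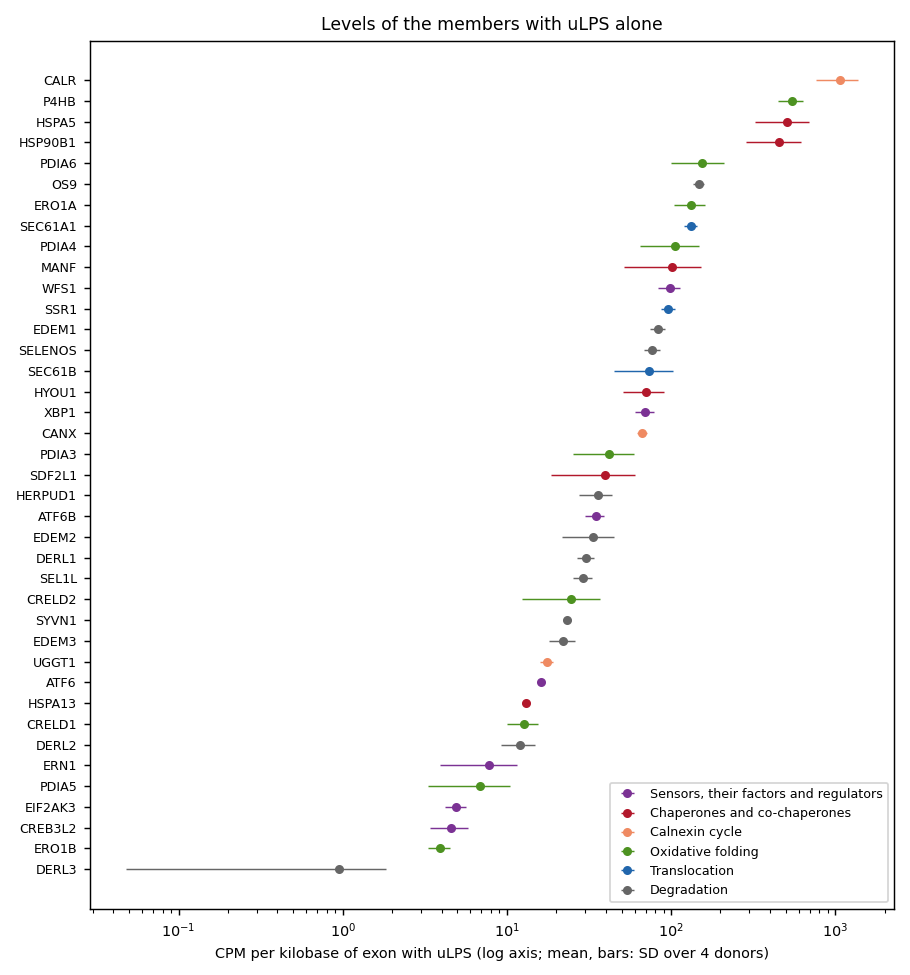
Level of each member with uLPS alone, with the deposited labels, in TMM-scaled CPM per kilobase of exon on a log axis. Points are means and bars SD over 4 donors, and colours give the role. CALR is highest at 1071, DERL3 is lowest at 0.944, and the sensors lie in the lower part.

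The comparison of uLPS with and without MRS2578 asked which of these genes differed when MRS2578 was present during TLR4 stimulation. HSPA5 had the largest difference in CPM, with about the same level in both libraries of R14143 and a level several times higher with MRS2578 in R07110 and R12016, while in R02046 as labelled it went from 2032 CPM with uLPS to 1288 CPM with MRS2578. With the deposited labels, 31 members were higher with MRS2578 and 8 lower, and the median log2 fold change over the 39 members was 0.127, against -0.0097 over all genes tested. No member passed an adjusted p of 0.05 by edgeR's quasi-likelihood test with Benjamini-Hochberg adjustment, as was the case for all genes tested (0 of 12131, 0%), and the lowest adjusted p of a member was 0.877. At an unadjusted p under 0.05 there were 3 members (EIF2AK3, CREB3L2 and SYVN1), against 5.14% of all genes tested. DESeq2's Wald test called 0 members and 1 gene in all.

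With the R02046 libraries exchanged, 30 members were higher and 9 lower, with a median of 0.160 against 0.0012 over all genes tested. Again 0 members passed the adjusted threshold by edgeR, against 0.618% of all genes tested, with the lowest edgeR adjusted p at 0.101 (PDIA4). At an unadjusted p under 0.05 there were 14 members, against 16.5% of all genes tested in either direction. Of these 14 members, 12 were higher, against 832 of the 12131 genes tested that were under this p and higher. DESeq2's Wald test called 5 members in this arrangement, against 5% of all genes it adjusted, namely HSP90B1, HYOU1, PDIA4, PDIA6 and DERL3, all higher. Without R14143 in the same arrangement, edgeR called 10 members, all higher, with adjusted p-values from 0.0072 to 0.0399. These were HSPA5, HSP90B1, HYOU1, SDF2L1, MANF, PDIA4, PDIA6, CRELD2, SEC61B and DERL3, and the whole table then held 919 called genes (7.58% of those tested) against 75 with all 4 donors, 0 without R07110, 5 without R12016 and 0 without R02046.

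Without R02046, 33 members were higher and 6 lower with a median of 0.195, against -0.0035 over all genes tested. In that fit 0 members and 0 of 12295 genes (0%) passed edgeR's adjusted threshold, the lowest edgeR adjusted p of a member was 0.214 (HSP90B1), and 13 members had an unadjusted p under 0.05, against 13.6% of all genes tested. In the plot of the fits, DERL3 moved furthest with the exchange of R02046, from 0.88 to 1.98.

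**Figure D2:**
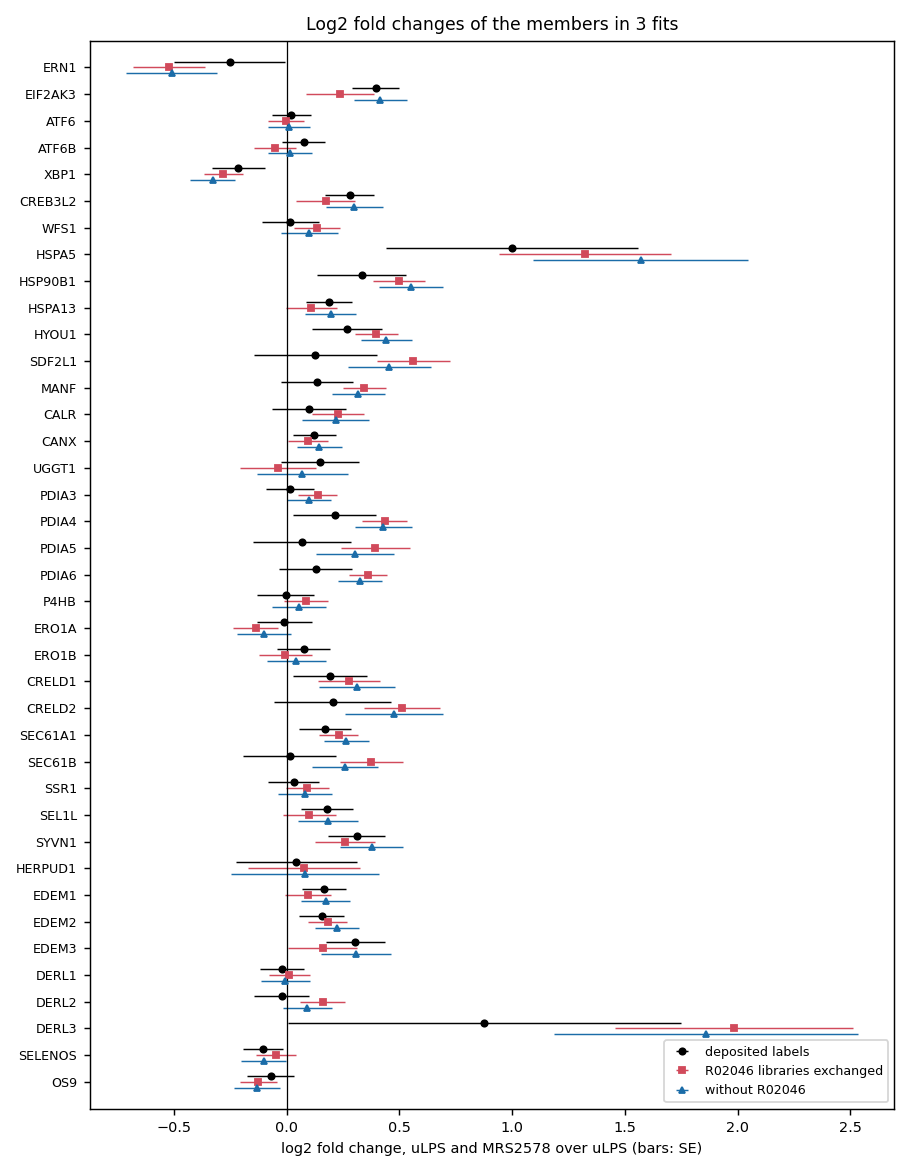
Log2 fold change of each member, uLPS with MRS2578 over uLPS alone, with SE bars, in 3 edgeR fits: deposited labels, R02046 libraries exchanged, and without R02046. HSPA5 is at 1.00, 1.32 and 1.57 and DERL3 at 0.88, 1.98 and 1.86 in these fits, and most other members lie between -0.3 and 0.6.

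The donors differed from each other. The difference within a donor is the log2 CPM with MRS2578 minus that with uLPS alone, and it was above 0 for 34 of 39 members in R07110, 29 in R12016, 16 in R02046 as labelled and 23 in R14143. Its median over the members was 0.131 in R07110, 0.340 in R12016, -0.118 in R02046 as labelled and 0.0996 in R14143. In R07110, 4 members were higher by more than 0.5 (8.85% of all genes tested), and in R12016 there were 14 (16.3%). In R02046 as labelled only ERN1 was higher by more than 0.5 (10.7% of all genes tested), and in R14143 only UGGT1 and EDEM3 (7.92%). Members lower by more than 0.5 numbered 0 in R07110 (6.58% of all genes tested), 0 in R12016 (11.8%), 6 in R02046 as labelled (11.8%) and 3 in R14143 (12.8%).

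Over the members, the differences of R07110 and R12016 had a Pearson correlation of 0.922, which was 0.776 without HSPA5 and DERL3 and 0.644 over all genes tested. The differences of R02046 as labelled ran opposite to those of R07110, at -0.801 over the members and -0.305 over all genes tested, and opposite to those of R12016, at -0.726 and -0.251. Without HSPA5 and DERL3 the values over the members were -0.631 and -0.542. R14143 followed none of the others, with correlations from -0.202 to 0.211 over the members. Without HSPA5 and DERL3 these were 0.151 with R07110, -0.0118 with R12016 and -0.0784 with R02046. These correlations are across genes, which are not independent, and no p is given. In the 3 donors whose labels are not in doubt, 18 members were higher in all 3 (17% of all genes tested) and 3 were lower in all 3 (19.8%), namely ERN1, XBP1 and OS9. In all 4 donors as labelled, 7 members were higher (6.43% of all genes tested) and 0 were lower (6.49%). The 7 were EIF2AK3, CREB3L2, HSPA13, CANX, SYVN1, EDEM1 and EDEM3. With R02046 exchanged, 11 other members were higher in all 4 donors (10.6% of all genes tested) and 3 were lower (13.2%). The 11 were HSPA5, HSP90B1, HYOU1, MANF, CALR, PDIA3, PDIA4, PDIA5, PDIA6, SEC61A1 and EDEM2, and the 3 were ERN1, XBP1 and OS9.

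**Figure D3:**
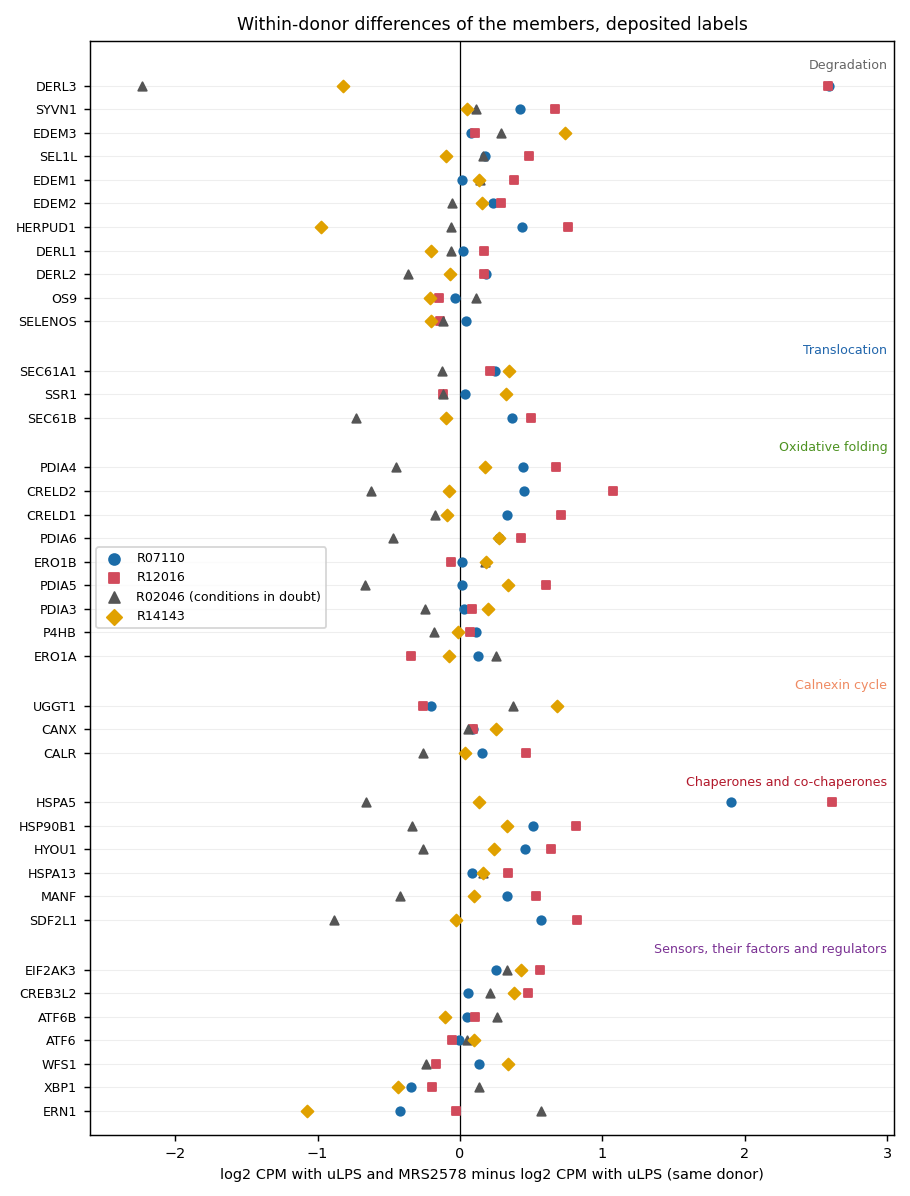
Difference within each donor of log2 CPM, uLPS with MRS2578 minus uLPS alone, for the 39 members by role, with the deposited labels. The points of R07110 and R12016 lie to the right for HSPA5 and DERL3 (1.90 to 2.61), those of R02046 to the left (-0.66 and -2.24), and R14143 is at 0.13 and -0.82.

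The sensors, their factors and regulators showed no common direction, with medians of 0.0219, -0.0029 and 0.0152 over the 7 genes in the fits with the deposited labels, with R02046 exchanged and without R02046. EIF2AK3, which encodes PERK, had 29.3, 31.1, 33.9 and 23.6 CPM with uLPS in R07110, R12016, R02046 and R14143, and 35.0, 46.0, 42.7 and 31.8 CPM with MRS2578 in the same order. It was higher with MRS2578 in each of the 4 donors as labelled, although the groups overlapped. Its log2 fold change was 0.40 (SE 0.10, edgeR adjusted p = 0.877) with the labels and 0.24 (SE 0.15, adjusted p = 0.481) with R02046 exchanged.

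ERN1, which encodes IRE1, had 73.4, 67.2, 22.7 and 101 CPM with uLPS and 54.9, 66.0, 33.7 and 48.0 CPM with MRS2578, in the same order of donors. Both libraries of R02046 were below all others, and the lower level with MRS2578 was clearest in R14143, with a difference of -1.08, against -0.03 in R12016. The log2 fold change was -0.25 (SE 0.24, edgeR adjusted p = 0.906) with the labels, -0.52 (SE 0.16, adjusted p = 0.172) with R02046 exchanged and -0.51 (SE 0.20, adjusted p = 0.359) without it.

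XBP1, the transcription factor whose mRNA IRE1 splices, had 121, 126, 104 and 145 CPM with uLPS and 95.3, 110, 114 and 107 CPM with MRS2578. In R07110, R12016 and R14143 its level fell short of that with uLPS alone, by 0.35, 0.20 and 0.44 on the log2 scale, and in R02046 as labelled it was higher by 0.13. With R02046 exchanged the groups did not overlap, and the log2 fold change was -0.28 (SE 0.09, edgeR adjusted p = 0.180). With the deposited labels they overlapped and it was -0.21 (SE 0.12, adjusted p = 0.877).

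ATF6 was nearly level, at 116, 115, 126 and 122 CPM with uLPS and 116, 110, 131 and 131 CPM with MRS2578. Its log2 fold change was 0.02 (SE 0.09) with the labels and -0.0029 (SE 0.08) with R02046 exchanged. Its paralog ATF6B had differences within donors from -0.10 to 0.26. CREB3L2, a transcription factor of the same membrane-bound kind, was higher with MRS2578 in all 4 donors as labelled, by 0.05 to 0.48, with a log2 fold change of 0.28 (SE 0.11, edgeR adjusted p = 0.877), against 0.17 (SE 0.13, adjusted p = 0.558) with R02046 exchanged and 0.30 (SE 0.13, adjusted p = 0.380) without it. WFS1, an ER membrane protein that restrains ATF6, had differences from -0.24 to 0.34.

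The chaperones and co-chaperones shared a direction in the fits, which have most libraries in common, but not in every donor. Their median difference was 0.485 in R07110, 0.724 in R12016 and 0.149 in R14143. In R02046 as labelled it was -0.379, with 1 of the 6 higher. All 6 were above 0 in each of the 3 fits, with medians of 0.229 with the labels, 0.448 with R02046 exchanged and 0.449 without R02046. In any of them 0 of 6 passed edgeR's adjusted threshold. At an unadjusted p under 0.05 there were 0, 5 and 5, against 5.14%, 16.5% and 13.6% of all genes tested. HSPA5 (BiP) binds unfolded chains in the ER lumen and holds the sensors inactive. It had 1075, 990, 2032 and 1180 CPM with uLPS in R07110, R12016, R02046 and R14143, and 4016, 6055, 1288 and 1295 CPM with MRS2578. Of the uLPS libraries that of R02046 was the highest, and with MRS2578 the libraries of R07110 and R12016 stood far above the others. On the log2 scale MRS2578 minus uLPS came to 1.90 for R07110, 2.61 for R12016, -0.66 for R02046 as labelled and 0.13 for R14143. The study itself named HSPA5 among the genes raised by MRS2578 in these same libraries, in a figure marked by edgeR false discovery rates. The direction of HSPA5 here is therefore not independent evidence. The edgeR fits of all donors given here did not call HSPA5 with either assignment, and the study does not state its model. By RT-PCR the study also reported HSPA5 as higher in microglia given MRS2578 without uLPS. It reported heat shock protein genes as induced by MRS2578 in bone marrow-derived macrophages too, with and without uLPS.

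The groups overlapped for HSPA5 with the deposited labels, at 1319 ± 481 CPM with uLPS against 3164 ± 2316 CPM with MRS2578 (SD, n = 4). With R02046 exchanged they were 1133 ± 129 and 3349 ± 2139 CPM and did not overlap, the highest uLPS value being 1288 and the lowest MRS2578 value 1295 CPM. The log2 fold change was 1.00 (SE 0.56, edgeR adjusted p = 0.877) with the labels, 1.32 (SE 0.38, adjusted p = 0.153) with R02046 exchanged and 1.57 (SE 0.48, adjusted p = 0.270) without it. Among the fits run, edgeR called it only with R02046 exchanged and R14143 left out, at 1.73 with an adjusted p of 0.0219. The donors with the large differences, R07110 and R12016, are both listed as males, and with so few donors sex and donor cannot be told apart.

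HSPA5 lies on chromosome 15 of the macaque genome Mmul_10, from 15428342 to 15433501 on the plus strand. The 250 bases before its annotated start are shown because they hold the ER stress response element (ERSE), the textbook site for ATF6 together with the CCAAT-binding factor NF-Y, and HSPA5 was the member with the largest difference in level. The window is chr15:15428092-15428341 on the plus strand, read 5′ to 3′ with the ERSE match in capitals.
HSPA5 upstream: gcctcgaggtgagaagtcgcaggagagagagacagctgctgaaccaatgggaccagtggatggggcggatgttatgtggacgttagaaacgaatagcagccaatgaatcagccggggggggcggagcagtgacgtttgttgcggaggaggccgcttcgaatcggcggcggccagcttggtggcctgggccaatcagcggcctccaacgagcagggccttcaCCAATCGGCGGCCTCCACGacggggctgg
Windows from 250 bases before to 50 bases after the annotated start of 20782 protein-coding genes were searched on both strands for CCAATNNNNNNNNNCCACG. It occurred in 14 of them (0.0674%), and 5 of these 14 were members of the 39 (12.8%). The members were chosen by role and include ER chaperones, which ATF6 is known to raise, so this contrast is not a test. The 5 matches are shown on the strand of the motif with its CCAAT and CCACG parts in capitals, since they show how the spacer between these parts varied.
HSPA5, 29 bases before the start: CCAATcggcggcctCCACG
PDIA6, 75 bases before the start: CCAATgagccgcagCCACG
CRELD2, 62 bases before the start: CCAATccgagctcgCCACG
HSP90B1, 156 bases before the start: CCAATcgcgccgcaCCACG
ERO1B, 168 bases before the start: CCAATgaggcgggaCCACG
The distances are those of the match's first base along the gene's strand, and the matches of HSP90B1, ERO1B and CRELD2 lay on the opposite strand of the gene.

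The shorter ERSE-II, ATTGGNCCACG, occurred in 9 of the 20782 windows (0.0433%) and in 1 member, HYOU1, which held it at 149 and at 44 bases before its start, both times as the sequence below with the CCAAT-box complement and CCACG in capitals.
HYOU1, ERSE-II: ATTGGaCCACG
The UPRE, TGACGTGG, occurred in 0.678% of windows and among members in HYOU1 alone, where it shared 5 bases with the ERSE-II match farther from the start. Neither TGATGCAA, the core of the ATF4 site called CARE, nor the heat shock element GAANNTTCNNGAA was found in any of the 39 windows, against 0.664% and 0.385% of all windows. The 5 letters CCAAT alone, which every ERSE match contains, occurred in 28 members (71.8%) and 34.7% of all windows, and CCACG alone in 29 members (74.4%) and 39.2%. The 6 members with an ERSE or ERSE-II match had medians of the log2 fold change at 0.237 with the labels, 0.448 with R02046 exchanged and 0.460 without R02046, and the 33 others 0.0991, 0.136 and 0.173. A match is a description of letters in a window and not a site in use. Each window was set at the outermost annotated start of its gene, so a match near another start would be missed.

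HSP90B1, the ER Hsp90, had 1046, 856, 1884 and 1140 CPM with uLPS and 1495, 1502, 1495 and 1432 CPM with MRS2578. As labelled, the MRS2578 libraries were nearly equal, and the donors differed with uLPS alone, where R02046 was above and the others were below that level. With R02046 exchanged this pattern was absent, at 1134 ± 268 CPM with uLPS and 1578 ± 206 CPM with MRS2578 (SD, n = 4). Its log2 fold change was 0.33 (SE 0.20, edgeR adjusted p = 0.877) with the labels, 0.50 (SE 0.12, adjusted p = 0.103) with R02046 exchanged and 0.55 (SE 0.14, adjusted p = 0.214) without it. HYOU1, a large Hsp70-like chaperone that exchanges the nucleotide of BiP, went the same way at 0.27, 0.40 and 0.44 (SE 0.16, 0.10 and 0.11).

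SDF2L1, a partner of BiP and of ER-resident DnaJ proteins, had 26.6, 12.7, 45.1 and 20.4 CPM with uLPS and 39.6, 22.6, 24.4 and 20.1 CPM with MRS2578. R07110 and R12016 were higher with MRS2578 by 0.57 and 0.82 on the log2 scale, R14143 was level at -0.03, and R02046 as labelled differed by -0.88. The log2 fold change was 0.13 (SE 0.27, edgeR adjusted p = 0.959) with the labels and 0.56 (SE 0.16, adjusted p = 0.153) with R02046 exchanged. MANF, a secreted ER stress protein, had fold changes of 0.13, 0.35 and 0.32 on the log2 scale in the fits with the labels, with R02046 exchanged and without it. HSPA13, a less studied Hsp70-type protein of microsomes, was higher with MRS2578 in all 4 donors as labelled, by 0.09 to 0.34, at means of 29.8 ± 1.67 and 34.1 ± 3.70 CPM (SD, n = 4).

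**Figure D4:**
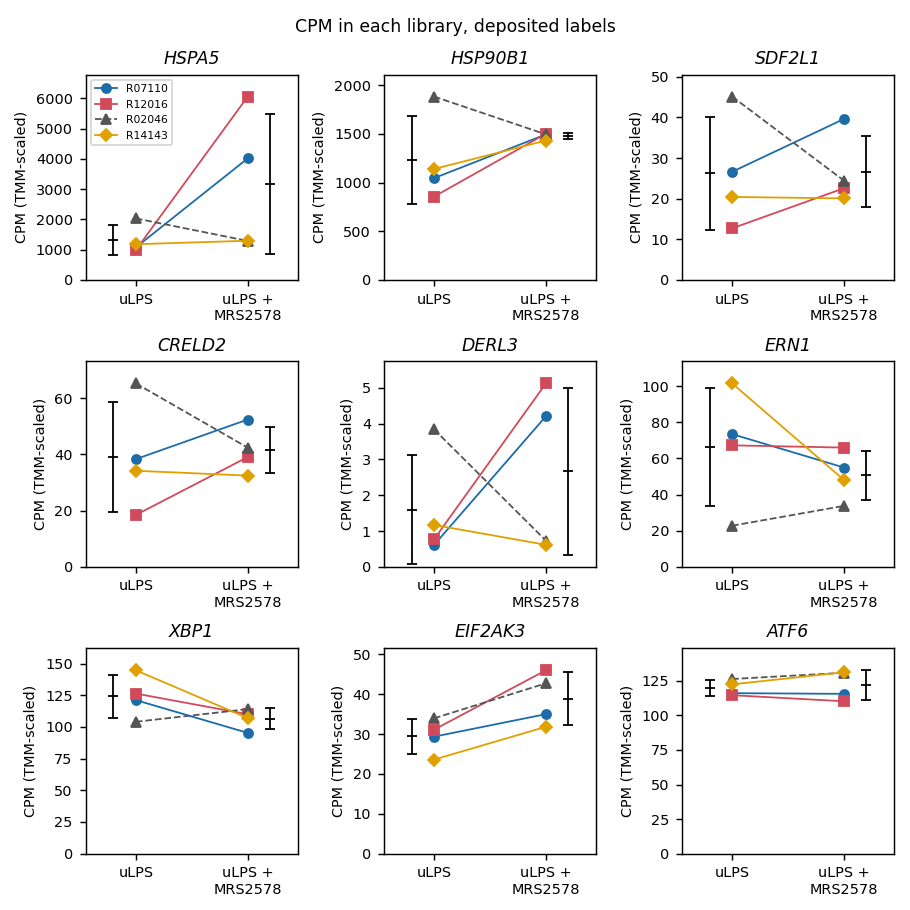
TMM-scaled CPM in each of the 8 libraries for 9 members, with the deposited labels. Lines join the libraries of a donor, the dashed line is R02046, and the black bars are mean ± SD over 4 donors. HSPA5 reaches 4016 and 6055 CPM with MRS2578 in R07110 and R12016, while ATF6 stays between 110 and 131 CPM.

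The calnexin cycle, in which lectins hold glycoproteins until they fold, moved little. CALR had between 1632 and 2828 CPM with uLPS and between 1748 and 2366 CPM with MRS2578, and the highest value of each group was that of R02046. Its log2 fold change was 0.10 (SE 0.16) with the labels and 0.23 (SE 0.11, edgeR adjusted p = 0.375) with R02046 exchanged. CANX, the membrane-bound lectin, was higher with MRS2578 in each donor as labelled, by 0.06 to 0.25, and UGGT1, which tags unfolded glycoproteins for another round, was lower in R07110 and R12016 (-0.21 and -0.26) and higher in R02046 as labelled and R14143 (0.37 and 0.68). The medians over the 3 genes were 0.124 with the labels, 0.0951 with R02046 exchanged and 0.145 without R02046.

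Oxidative folding had 7 of 9 genes higher and 2 lower with the deposited labels (median 0.0767), the same numbers with R02046 exchanged (0.278), and 8 higher without R02046 (0.305). At an unadjusted p under 0.05 there were 0, 4 and 2 of the 9, against 5.14%, 16.5% and 13.6% of all genes tested, and 0 passed edgeR's adjusted threshold. PDIA4 and PDIA6, disulfide isomerases that work with BiP, were higher in R07110, R12016 and R14143 (0.44, 0.68 and 0.18 for PDIA4, and 0.28, 0.43 and 0.27 for PDIA6) and lower in R02046 as labelled (-0.45 and -0.47). The log2 fold change of PDIA4 was 0.21 (SE 0.18, edgeR adjusted p = 0.901) with the labels and 0.43 (SE 0.10, adjusted p = 0.101) with R02046 exchanged. That of PDIA6 was 0.13 (SE 0.16, adjusted p = 0.929) and 0.36 (SE 0.08, adjusted p = 0.104).

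CRELD2, a secreted disulfide isomerase-like protein induced in ER stress, had 38.3, 18.4, 65.2 and 34.2 CPM with uLPS and 52.4, 39.0, 42.3 and 32.4 CPM with MRS2578. It was higher with MRS2578 by 1.08 on the log2 scale in R12016 and by 0.45 in R07110, near level in R14143 at -0.07, and lower in R02046 as labelled at -0.62. Its log2 fold change was 0.20 (SE 0.26, edgeR adjusted p = 0.929) with the labels and 0.51 (SE 0.17, adjusted p = 0.198) with R02046 exchanged. Its relative CRELD1 had differences of 0.33 and 0.71 in R07110 and R12016 and of -0.17 and -0.09 in R02046 as labelled and R14143. PDIA5, a low member at 13.4 ± 6.94 CPM with uLPS, had differences from -0.66 in R02046 as labelled to 0.60 in R12016.

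The abundant P4HB did not follow HSPA5, with 1417 ± 247 CPM with uLPS and 1401 ± 111 CPM with MRS2578 (SD, n = 4) and differences within donors from -0.18 to 0.11. PDIA3, the disulfide isomerase that partners the calnexin cycle, had differences from -0.25 to 0.20. The oxidases ERO1A and ERO1B had differences from -0.34 to 0.25 and from -0.06 to 0.19, and their log2 fold changes with R02046 exchanged were -0.14 (SE 0.10) and -0.0065 (SE 0.12).

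Of the translocation genes, SEC61A1, the channel subunit of the translocon, had between 444 and 534 CPM with uLPS and between 490 and 565 CPM with MRS2578. It was higher in R07110, R12016 and R14143 by 0.24, 0.21 and 0.35 on the log2 scale and lower by 0.12 in R02046 as labelled. With R02046 exchanged the groups did not overlap, and the log2 fold change was 0.23 (SE 0.09, edgeR adjusted p = 0.235). SEC61B, a small subunit of the same channel, had differences of 0.37, 0.50, -0.73 and -0.10 in R07110, R12016, R02046 as labelled and R14143, and SSR1, of the translocon-associated complex, of 0.04, -0.12, -0.12 and 0.32. The median over the 3 genes was 0.0313 with the labels, 0.230 with R02046 exchanged and 0.258 without R02046.

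The degradation genes had 7 of 11 higher with the labels (median 0.156), 9 with R02046 exchanged (0.101) and 8 without R02046 (0.173). In these fits 1, 1 and 2 of them had an unadjusted p under 0.05, against 5.14%, 16.5% and 13.6% of all genes tested. DERL3 was measured from few reads, with 20, 12, 36 and 23 counts with uLPS and 104, 81, 10 and 11 counts with MRS2578 in R07110, R12016, R02046 and R14143. In CPM these were 0.609, 0.766, 3.84 and 1.17 with uLPS and 4.21, 5.12, 0.731 and 0.615 with MRS2578. R07110 and R12016 were higher with MRS2578, at 2.59 and 2.58 on the log2 scale, and R02046 as labelled and R14143 were lower, at -2.24 and -0.82. The log2 fold change was 0.88 (SE 0.87, edgeR adjusted p = 0.907) with the labels, 1.98 (SE 0.53, adjusted p = 0.129) with R02046 exchanged and 1.86 (SE 0.67, adjusted p = 0.324) without it. Its paralogs DERL1 and DERL2, which take part in the export of misfolded proteins, did not share this range, with differences from -0.20 to 0.17 and from -0.37 to 0.18.

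SYVN1 (HRD1), the ubiquitin ligase at the centre of the export complex, was higher with MRS2578 in all 4 donors as labelled, at 0.42, 0.66, 0.11 and 0.05, with 78.6 ± 4.57 CPM with uLPS and 99.0 ± 21.1 CPM with MRS2578 (SD, n = 4). Its log2 fold change was 0.31 (SE 0.13, edgeR adjusted p = 0.877) with the labels and 0.26 (SE 0.13, adjusted p = 0.387) with R02046 exchanged. SEL1L, its adaptor, had differences of 0.18, 0.48, 0.16 and -0.10. HERPUD1, which recruits ubiquitinated clients and answers to both ATF6 and ATF4, went in different directions, at 0.43 and 0.76 in R07110 and R12016, -0.07 in R02046 as labelled and -0.98 in R14143, and its log2 fold change was 0.04 (SE 0.27) with the labels.

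The EDEM proteins trim mannose from glycoproteins that are to be degraded. EDEM1 and EDEM3 were higher with MRS2578 in all 4 donors as labelled, by 0.01 to 0.38 and by 0.08 to 0.74, the highest for EDEM3 being that of R14143, and EDEM2 differed by -0.05 to 0.29. The log2 fold changes with the labels were 0.17 (SE 0.10) for EDEM1, 0.16 (SE 0.10) for EDEM2 and 0.30 (SE 0.13) for EDEM3, with edgeR adjusted p-values of 0.877, 0.880 and 0.877. With R02046 exchanged they were 0.10 (SE 0.10), 0.18 (SE 0.09) and 0.16 (SE 0.15), and without that donor 0.17 (SE 0.11), 0.22 (SE 0.10) and 0.31 (SE 0.15). OS9, which reads the trimmed sugars, was at -0.07 (SE 0.10) and SELENOS, a selenoprotein of the export complex, at -0.11 (SE 0.09).

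Other genes of the same pathways, listed by role, were set beside the members. All listed genes that are named in the files passed the filter, and 0 of any list passed edgeR's adjusted threshold in any of the 3 fits, with the lowest adjusted p-values with R02046 exchanged at 0.058 for the ER DNAJ co-chaperones and 0.0629 for the heat shock genes. The 6 ER DNAJ co-chaperones, which bring clients to BiP, had medians of 0.178, 0.211 and 0.264 in the fits with the labels, with R02046 exchanged and without R02046. In the same order 0, 3 and 3 of them had an unadjusted p under 0.05, against 5.14%, 16.5% and 13.6% of all genes tested. DNAJB9, which also restrains IRE1, averaged 37.7 ± 17.3 CPM with uLPS and 47.2 ± 9.85 CPM with MRS2578 (SD, n = 4), with a log2 fold change of 0.40 (SE 0.20, edgeR adjusted p = 0.877) with the labels and 0.60 (SE 0.11, adjusted p = 0.058) with R02046 exchanged. DNAJC1 was at -0.22 (SE 0.14) and 0.04 (SE 0.15).

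The next 4 lists stayed near the median of all genes with the labels. The 15 further ER folding genes had a median of -0.0330 with the labels and 0.112 with R02046 exchanged. The largest in size with the labels were FKBP14, a prolyl isomerase, at -0.42 (SE 0.32) and PRDX4, a peroxiredoxin of the ER, at -0.26 (SE 0.16). Both changed sign with R02046 exchanged, to 0.29 (SE 0.32) and 0.11 (SE 0.17). The 13 further genes of translocation and signal peptide cleavage had medians of 0.0365 and 0.232, and TRAM1, a protein beside the translocon, was at 0.21 (SE 0.14) with the labels and 0.34 (SE 0.08, edgeR adjusted p = 0.108) with R02046 exchanged, while SSR4 was at -0.16 (SE 0.12) with the labels. With R02046 exchanged all 13, SSR4 included, were above 0, against 8 with the labels. The 12 N-glycosylation genes had medians of 0.0382 and 0.0650, with UGGT2 at 0.24 (SE 0.20) and STT3A, a catalytic subunit of the oligosaccharyltransferase, at 0.15 (SE 0.11) with the labels. The 15 further genes of ER-associated degradation had medians of 0.0221 and 0.0320, with HERPUD2 at -0.22 (SE 0.11) and MAN1B1, a mannosidase, at -0.15 (SE 0.10) with the labels. At an unadjusted p under 0.05 there were 0 genes of each of these lists with the labels, against 5.14% of all genes tested. With R02046 exchanged there were 4, 4, 4 and 3, against 16.5% of all genes tested in either direction. Of these, 4, 4, 4 and 1 were higher, against 832 of the 12131 genes tested.

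The outputs of the PERK branch and the integrated stress response were mostly lower in each fit. Of 10 genes, 1 was higher and 9 lower with the labels (median -0.444), 2 and 8 with R02046 exchanged (-0.315), and 2 and 8 without R02046 (-0.503). Each fit had 2 of them at an unadjusted p under 0.05, against 5.14%, 16.5% and 13.6% of all genes tested. In R14143, all 10 were lower by more than 0.5, as were 12.8% of all genes tested, and the median difference was -1.67, against -0.108 in R07110, 0.419 in R12016 and -0.283 in R02046 as labelled. In R14143 the markers of endothelial, mural and fibroblast cells summed to 1389 CPM with uLPS and 611 CPM with MRS2578, and their part in the result was not tested. The largest of them there was COL1A1, at 512 and 178 CPM. CHAC1, a glutathione-degrading target of ATF4, averaged 38.2 ± 27.5 CPM with uLPS and 11.2 ± 7.24 CPM with MRS2578 (SD, n = 4), with a log2 fold change of -1.55 (SE 0.52, edgeR adjusted p = 0.877). ATF4, the transcription factor of this branch, was lower with MRS2578 in all 4 donors as labelled, at -0.55, -0.58, -0.21 and -1.26, with a log2 fold change of -0.65 (SE 0.17, edgeR adjusted p = 0.877) with the labels and -0.55 (SE 0.20, adjusted p = 0.234) with R02046 exchanged. Without R02046 the log2 fold changes were -1.89 for CHAC1 and -0.80 for ATF4.

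The cytosolic and mitochondrial heat shock genes, which answer to unfolded protein outside the ER, had a larger median than any group of members. All 13 were higher with the labels (median 0.982), with R02046 exchanged (1.33) and without R02046 (1.54). In these fits 3, 12 and 12 of them had an unadjusted p under 0.05, against 5.14%, 16.5% and 13.6% of all genes tested. Several genes of this list were named by the study from these same libraries, so the direction of the list is not independent evidence. The median difference was 1.78 in R07110, 2.48 in R12016, -0.715 in R02046 as labelled and 0.331 in R14143, an order of donors that the 6 chaperones shared at 0.485, 0.724, -0.379 and 0.149. DNAJA4, a co-chaperone of cytosolic Hsp70, averaged 27.6 ± 29.7 CPM with uLPS and 266 ± 319 CPM with MRS2578, and HSPB1, a small heat shock protein, at 91.8 ± 71.0 and 770.5 ± 868 CPM (SD, n = 4). Their log2 fold changes were 2.62 (SE 1.66, edgeR adjusted p = 0.880) and 2.11 (SE 1.35, adjusted p = 0.882) with the labels and 3.73 (SE 0.70, adjusted p = 0.0629) and 2.92 (SE 0.72, adjusted p = 0.11) with R02046 exchanged.

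**Figure D5:**
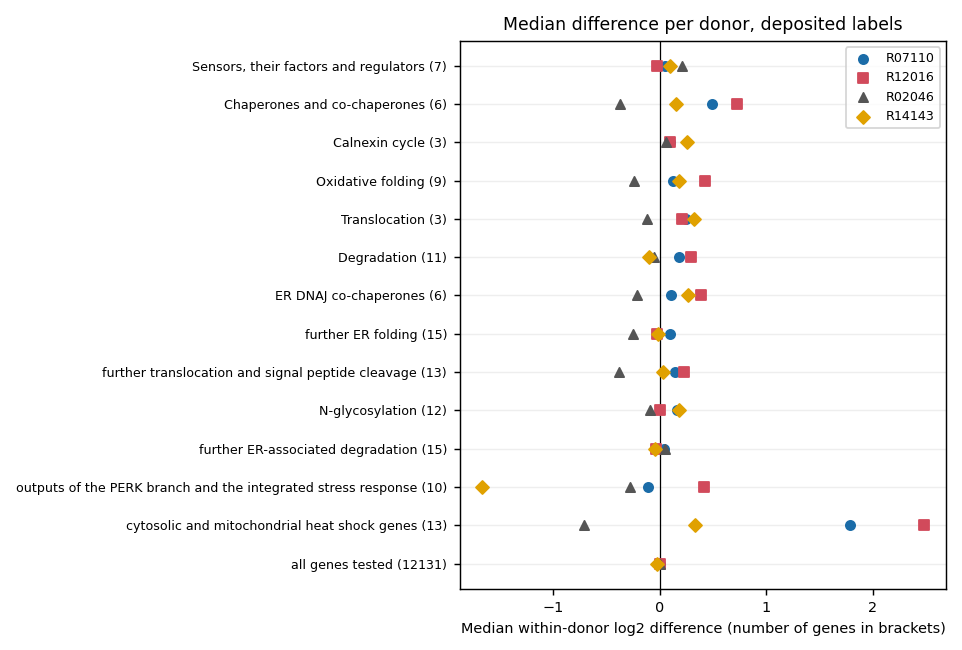
Median difference within each donor of log2 CPM, uLPS with MRS2578 minus uLPS alone, over the genes of each group, with the number of genes in brackets and the deposited labels. The heat shock genes range from -0.715 (R02046) to 2.48 (R12016), the chaperones from -0.379 to 0.724, and the PERK branch outputs are lowest in R14143 at -1.67, while all genes tested lie at 0.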

How the data were processed

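RNA was measured in 8 libraries, each assigned to its donor and condition by its label. The deposited values are whole-number counts per Ensembl gene, which the authors made from reads aligned to Mmul_10 by counting unique reads within exons. The paper's methods name fastp, STAR, SAMtools and HTSeq, while the submitters' processing notes name Trimmomatic 0.30, TopHat2 2.0.14, SAMtools 1.3 and HTSeq 0.6.1p1. The strand setting and the annotation release are not given in the sources used here, so overlapping genes and near-identical copies have uncertain counts. Between any pair of libraries, chi-square over genes divided by its degrees of freedom was 19.6 or more, so no library was a duplicate. The CPM values published with the paper were used only to match their columns to libraries.

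The counts were analysed in R 4.3.3 with edgeR 4.0.16. Genes were kept by filterByExpr on the conditions with a minimum count of 10 and TMM factors were applied. The quasi-likelihood F-test was run across all genes, donor being the block, and p-values were adjusted by Benjamini-Hochberg with a threshold of 0.05. DESeq2 1.42.0 served as an alternative. SE was derived from the F statistic, and log2 CPM has a prior count of 2. The block rests on the libraries of a donor coming from one animal, and both libraries of a donor deviated together from the means of their conditions, with correlations across genes of 0.602, 0.552, 0.458 and 0.562 in R07110, R12016, R02046 and R14143. A count of 0 allows up to 3 counts, or 0.325 CPM in the smallest library, for counting error only. The scripts were tested on simulated data.

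Members, roles and the other lists were chosen with earlier results of these data known. Values per library are given for ERN1, EIF2AK3, ATF6, XBP1 and for members with a log2 fold change of at least 0.5 in size with the deposited labels or with R02046 exchanged, to which HSP90B1, just under that limit, was added after its values were seen. Of each other list, the 2 genes with the largest log2 fold change in size and a mean of at least 1 CPM in each condition are named. Positions, exon lengths and upstream sequence come from NCBI Annotation Release 103 of Mmul_10, and CPM per kilobase therefore sets Ensembl counts over NCBI exon lengths. TXNDC5, FKBP11, CNPY2 and HSPA1A, and the markers C1QA, MAG and OLIG1, were not analysed here. The ends of the proteins, planned to be shown, were not used here. One marker is not reported here.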

Additional observations from a re-analysis of the deposited data

Results flagged for a closer look

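For each member, the 4 libraries of a condition were checked for 1 that stood apart, which gave 4 of 117 groups tested where chance alone gives about 1 in 20, the groups being the conditions as labelled and the differences within donors. HSP90B1 with uLPS and MRS2578 was at a log2 CPM of 10.48 in R14143, below the other 3 donors at 10.55 each. HSPA13 with uLPS was at 4.78 in R14143, below the others at 4.93 to 4.96. CALR with uLPS was at 11.47 in R02046, above the others at 10.67 to 10.80. P4HB with uLPS and MRS2578 was at 10.61 in R02046, above the others at 10.38 to 10.42. The conditions of R02046 were in doubt, as described.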

How the results depend on the processing

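With the deposited labels, 0 members passed under each alternative. The genes called numbered 1 by DESeq2's Wald test and 75 with R02046 exchanged, and 0 with each donor left out. The Translocation median was 0.230 with R02046 exchanged and 0.0253 to 0.26 with a donor left out. With R02046 exchanged, the genes called were 583 by DESeq2's Wald test, 32 with at least 10 counts in every library, 39 with edgeR's earlier estimation (added after the data were seen) and 0 to 919 with a donor left out, and the members called were 5 by DESeq2's Wald test and 0 to 10 with a donor left out. The causes were not tested.

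Without the replicate block, that is with the libraries of a donor not paired, 0 genes and 0 members were called with either assignment, and the members' median was 0.0723 with the labels and 0.147 with R02046 exchanged. PDIA3, PDIA5 and SEC61B then changed sign with the labels, to -0.0216, -0.0184 and -0.0245.

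Other members also changed sign. With R02046 exchanged in place of the labels they were ATF6 (-0.0029), ATF6B (-0.0506), UGGT1 (-0.0395), P4HB (0.0868), ERO1B (-0.0065), DERL1 (0.0121) and DERL2 (0.160). P4HB with the labels was at 0.00125 and ATF6 with R02046 exchanged at 0.000592 with at least 10 counts in every library, and DERL1 with R02046 exchanged at -0.0027 without a filter. With the labels and a donor left out, the ranges were ERN1 -0.51 to 0.0282, ATF6 -0.00812 to 0.0527, WFS1 -0.0946 to 0.10, SDF2L1 -0.0885 to 0.46, CALR -0.0182 to 0.22, UGGT1 -0.0361 to 0.29, PDIA3 -0.0488 to 0.10, PDIA5 -0.0957 to 0.31, P4HB -0.0459 to 0.0543, ERO1A -0.0995 to 0.10, CRELD2 -0.0688 to 0.48, SEC61B -0.14 to 0.26, SSR1 -0.0703 to 0.0856, HERPUD1 -0.19 to 0.37, DERL1 -0.0768 to 0.0376, DERL2 -0.0938 to 0.0924 and DERL3 -0.0233 to 1.86. With R02046 exchanged and a donor left out, the ranges were ATF6 -0.0398 to 0.0213, ATF6B -0.0949 to 0.0152, UGGT1 -0.28 to 0.0703, ERO1B -0.072 to 0.044, SEL1L -0.0191 to 0.19, HERPUD1 -0.15 to 0.42, EDEM3 -0.0364 to 0.31, DERL1 -0.034 to 0.0816 and SELENOS -0.10 to 0.00411.

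Without TMM scaling the median difference over all genes tested moved to 0.138 in R12016 and stayed between -0.0479 and 0.0613 in the others, and that over the members was 0.191 in R07110 against 0.131, 0.480 in R12016 against 0.340, -0.166 in R02046 against -0.118 and 0.168 in R14143 against 0.0996. Totals of 9231109 counts or more give every member but DERL3 over 100 counts in each library. The alternative with a prior count of 0.25 left each of the members' medians within 0.001.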
